A study of Mus musculus with 8 samples.

Results

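The immunoglobulin heavy variable (Ighv) segments were followed as a group in mouse spleen RNA. The members were all genes of the count table whose symbol begins with Ighv and whose GENCODE M21 gene type is IG_V_gene, and this gave 113 of the 52636 genes in the table. All 113 lie on the minus strand of chromosome 12 between positions 113578504 and 116000461 of GRCm38. Counts reached at least 10 in 1 or more libraries for 96 members, 88 members passed the filter on low counts and were tested, and 8 members were at 0 in every library (Ighv7-2, Ighv16-1, Ighv6-5, Ighv6-7, Ighv1-16, Ighv1-24, Ighv1-62-1 and Ighv8-13).

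The 8 libraries came from whole spleens of C57BL/6 mice that were 6 weeks old, 2 for each of 4 groups. The groups were Lmna R527C mutants that received no irradiation (day 0), wild type mice that received none (day 0), Lmna R527C mutants at day 7 after 4 Gy, and wild type mice at day 7 after 4 Gy. Lmna encodes lamins A and C, structural proteins that line the inside of the nuclear envelope. The labels name no tissue-restricted driver, do not say whether a mutant carried the substitution on both copies, and give no sex, litter or batch, nor whether the 2 libraries of a group came from separate mice. The design text asks how the mutation leads to senescence. Libraries held 12100784 to 19455470 counts.

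Each heavy chain variable segment is a short gene that codes for most of the antigen-binding part of an antibody heavy chain. In a developing B cell the recombination enzymes join 1 segment to a D and a J segment, and that cell and its descendants then transcribe mainly the joined segment, spliced to a constant region. The use of segments in spleen RNA therefore mirrors which B cell and plasma cell clones contribute transcripts, and plasma cells, the antibody-secreting end stage, carry far more heavy chain RNA per cell than resting B cells. In whole spleen, fewer cells of a type and less RNA per cell cannot be told apart.

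The letters of the segments are shown first, because they set how well reads can be assigned to a member. All are coding strands, 5′ to 3′, from GENCODE M21 transcripts (GRCm38, chromosome 12, minus strand). Ighv3-6 is given because it led the Ighv reads of both unirradiated mutant libraries, and Ighv5-16 because it had one of the largest genotype differences and shares no run of 50 bases with another member. Capitals mark the in-frame cysteine codon near the end of the segment, from which the recombined junction is counted. Each line gives the last 300 coding bases before the recombination site, bases 51 to 350 of Ighv3-6 and 54 to 353 of Ighv5-16. Ighv3-6 spans 114288152 to 114288582, and Ighv5-16 spans 113838526 to 113839010.
Ighv3-6: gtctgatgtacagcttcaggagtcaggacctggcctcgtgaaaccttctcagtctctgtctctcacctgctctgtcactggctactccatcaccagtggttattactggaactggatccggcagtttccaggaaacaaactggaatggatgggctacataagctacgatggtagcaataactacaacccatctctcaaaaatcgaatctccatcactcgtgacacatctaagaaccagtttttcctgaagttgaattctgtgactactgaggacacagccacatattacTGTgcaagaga
Ighv5-16: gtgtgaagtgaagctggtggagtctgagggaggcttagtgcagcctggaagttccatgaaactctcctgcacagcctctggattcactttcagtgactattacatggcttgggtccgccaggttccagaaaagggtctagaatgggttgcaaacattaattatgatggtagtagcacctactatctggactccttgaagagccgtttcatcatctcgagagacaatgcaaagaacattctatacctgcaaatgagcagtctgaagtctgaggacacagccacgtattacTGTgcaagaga

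A cysteine codon in frame within the last 30 bases was found in 108 of the 110 members whose coding sequence could be used. The junction-side ends of the other segments that led the reads of at least 1 library show how alike the members are. Each line gives the last 60 bases before the recombination site, with the cysteine codon in capitals.
Ighv1-9: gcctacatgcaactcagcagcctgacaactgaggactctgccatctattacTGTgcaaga
Ighv1-20: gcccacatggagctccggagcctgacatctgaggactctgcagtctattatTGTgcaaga
Ighv6-3: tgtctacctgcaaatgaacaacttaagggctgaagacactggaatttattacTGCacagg
Ighv1-55: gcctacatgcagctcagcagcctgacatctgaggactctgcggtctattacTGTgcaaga
Ighv9-3: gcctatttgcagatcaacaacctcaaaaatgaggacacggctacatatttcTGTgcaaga

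Many members are near copies of each other. The member most similar to a given segment was identical at a median of 94.8% of aligned bases, with a range of 72.2% to 99.7%. Of the 113 members, 20 shared no 50-base run with another member, 78 shared some but at most 50% of their runs, and 15 shared over 50%. Ighv1-26 and Ighv1-18, the segments with the second and the third highest mean level over all groups, are a pair of this kind. They differ at 11 of 351 bases, and their longest identical stretch is 94 bases. The lines give bases 52 to 351, which hold 8 of the 11 differences, marked in capitals. Ighv1-26 spans 114788372 to 114788805, and Ighv1-18 spans 114682632 to 114683065.
Ighv1-26: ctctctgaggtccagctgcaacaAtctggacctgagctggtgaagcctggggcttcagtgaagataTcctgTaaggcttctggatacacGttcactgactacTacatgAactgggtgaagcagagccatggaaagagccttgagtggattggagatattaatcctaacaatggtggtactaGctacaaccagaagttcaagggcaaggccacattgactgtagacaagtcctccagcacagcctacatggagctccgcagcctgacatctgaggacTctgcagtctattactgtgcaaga
Ighv1-18: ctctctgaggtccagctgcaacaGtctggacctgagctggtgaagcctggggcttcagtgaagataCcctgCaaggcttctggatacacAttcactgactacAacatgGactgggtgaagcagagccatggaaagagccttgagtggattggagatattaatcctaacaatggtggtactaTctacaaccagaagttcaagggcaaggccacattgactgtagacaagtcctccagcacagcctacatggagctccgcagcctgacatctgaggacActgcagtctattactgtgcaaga
For reads that fit several genes, the handling was not given in the sources used here, so counts of such pairs are uncertain, and somatic mutation of a used segment can also move reads between copies. Sums over all members are less exposed to this than single segments.

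The irradiated and unirradiated libraries differed in more than the dose. Xist, the RNA of the inactive X chromosome, was at 1029 to 1776 CPM (counts per 1000000 of scaled library size) in the irradiated libraries and at most 0.262 CPM in the unirradiated ones. The sum of 4 Y-linked genes was 0 in the irradiated libraries and 264 to 299 CPM in the unirradiated ones. Albumin RNA was at 38.6 to 312 CPM in the irradiated libraries and 0 in the unirradiated ones. Irradiation and sex therefore cannot be told apart in any irradiation comparison here, while each genotype comparison was made within 1 such class. The irradiated mutant libraries also differed from each other, with a log2 CPM correlation of 0.892 (0.959 to 0.992 in the other groups, across genes). The first had the highest erythroid marker sum of all libraries, 155200 CPM, and the second the lowest, 12750 CPM. The second also had the highest marker sums of stroma, 1574 CPM, and of fat cells, 892 CPM.

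The summed Ighv level was highest in unirradiated mutants. The sum of all 113 members, in CPM, was 2107 and 1476 in unirradiated mutants, against 559 and 331 in unirradiated wild type. It was 118 and 236 in irradiated mutants, against 33.7 and 83.0 in irradiated wild type. The mutant libraries lay above the wild type libraries at each time, and every irradiated library lay below every unirradiated one. The unirradiated mutant mean of 1791 ± 446 CPM was 4.02-fold the wild type mean of 445.1 ± 162 (SD, n = 2 each). The irradiated mutant mean of 176.8 ± 83.4 CPM was 3.03-fold the irradiated wild type mean of 58.36 ± 34.9 (SD, n = 2 each). After irradiation the mean was 10.1-fold lower than at day 0 in mutants, and 7.63-fold lower than at day 0 in wild type. No p is given for these sums, because the members were chosen with results of these data known.

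**Figure D1:**
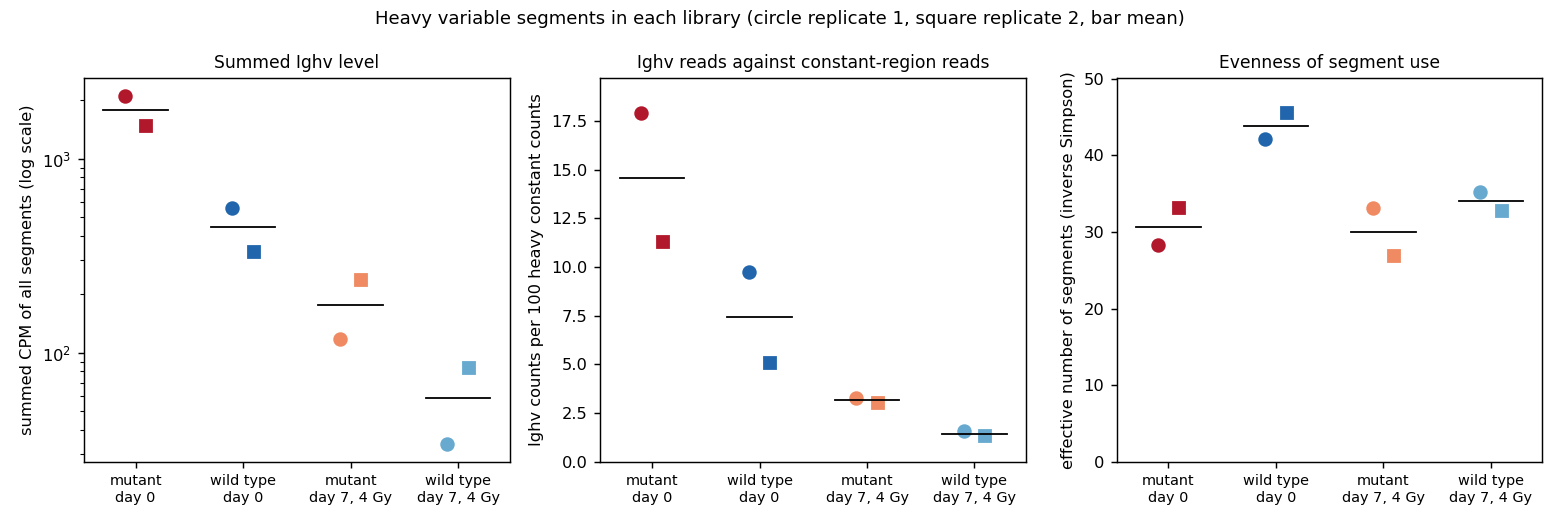
Summed Ighv level (CPM, log axis), Ighv counts per 100 heavy constant counts, and the effective number of segments in each of the 8 libraries, with circles for replicate 1, squares for replicate 2 and bars for group means. The summed level is ordered unirradiated mutant, unirradiated wild type, irradiated mutant and irradiated wild type with no overlap between groups, and the effective number is highest in the 2 unirradiated wild type libraries.

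As a share of all counts, Ighv reads were 0.249% and 0.168% in unirradiated mutants, against 0.0654% and 0.0355% in unirradiated wild type. They were 0.00831% and 0.0254% in irradiated mutants, against 0.00279% and 0.00777% in irradiated wild type. The reads behind these shares numbered 48299 and 31719 in unirradiated mutants and 12723 and 5231 in unirradiated wild type, but only 1009 and 4259 in irradiated mutants and 374 and 940 in irradiated wild type. Statements about single segments at day 7 therefore rest on few reads.

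Without irradiation nearly all segments had a higher mean in mutants. The mean was higher in mutants for 96 of the 113 members and lower for 9, with 8 at 0 in all libraries. Of the 88 tested, 72 had both mutant libraries above both wild type libraries, against 20.8% of all tested genes in that direction, and none had both below, against 25.0%. Over all 113 members, 79 had both above and 2 had both below. These 2 did not pass the filter on low counts, so the absence among tested segments depends on that filter. The log2 fold change was above 0 for 85 of the 88, against 46.7% of all genes. Its median over the tested segments was 1.85 (25% to 75% range 1.20 to 2.44), and over all tested genes -0.02. No segment passed by the quasi-likelihood test of edgeR, fitted to all libraries together, at an adjusted p of 0.05, and neither did any other gene in this comparison (0.0% of 17327). The smallest adjusted p among segments was 0.422, and 45 segments, all higher in mutants, had an unadjusted p under 0.05, where 1.8% of all genes did in that direction. The count depended on the fit. DESeq2 called 15 segments, all higher in mutants, where 0.33% of all genes were called higher. A fit of the 4 unirradiated libraries alone called 50 of 90 segments, all higher in mutants, where 2.27% of all genes were called higher. Leaving out the first irradiated mutant library gave 2 calls, Ighv3-6 and Ighv5-16, where 0.0801% of all genes were called higher, and leaving out the second gave the same 2, where 0.0778% were.

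Ighv3-6, a segment of the third family, was the most abundant member and the one with the largest share of the difference. It was at 236 and 156 CPM in unirradiated mutants, against 18.7 and 11.9 CPM in unirradiated wild type. The groups did not overlap, with the lower mutant library several times above the higher wild type one. The log2 fold change was 3.68 ± 0.418 (SE), with an adjusted p of 0.422 by edgeR on all libraries. On the unirradiated libraries alone it was 3.69 ± 0.269 (SE) with an adjusted p of 0.000248 by edgeR. Ighv3-6 alone made up 13.4% of the 1346 CPM by which the summed level was higher in mutants, and the 10 segments with the largest differences made up 50.6%. Only 3.32% of its 50-base runs occur in another member. How much of its count came from reads that also fit other members was not tested.

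Ighv5-16 and Ighv5-15, segments of the fifth family that lie near the D segments, had the next pattern of this kind. Ighv5-16 was at 54.1 and 31.9 CPM in unirradiated mutants, against 4.13 and 2.09 CPM in unirradiated wild type. Its log2 fold change was 3.78 ± 0.537 (SE), with an adjusted p of 0.503 by edgeR. Ighv5-15 was at 14.96 and 17.2 CPM in unirradiated mutants, against 1.54 and 0.633 CPM in unirradiated wild type. Both had mutant libraries far above wild type libraries, and the mutant replicates were close for Ighv5-15 but not for Ighv5-16. Ighv1-42, of the first and largest family, had a similar log2 fold change of 3.72 ± 0.926 (SE; edgeR adjusted p = 1), but its mutant libraries differed from each other. It was at 126 and 23.3 CPM in unirradiated mutants, against 4.79 and 6.58 CPM in unirradiated wild type. The wide gap between the mutant libraries shows that a single library carried most of that difference.

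The other segments with a high mean behaved alike without irradiation. Ighv1-26 was at 113 and 82.6 CPM in unirradiated mutants, against 21.5 and 17.0 CPM in unirradiated wild type. Ighv1-18 was at 143 and 56.4 CPM in unirradiated mutants, against 17.8 and 7.97 CPM in unirradiated wild type. Ighv1-81 was at 87.9 and 49.1 CPM in unirradiated mutants, against 18.7 and 11.3 CPM in unirradiated wild type. In these 3 segments, and in Ighv1-55 and Ighv1-64, both mutant libraries lay above both wild type ones. Ighv1-9, the exception among the 8 most abundant, overlapped, with 47.5 and 36.7 CPM in unirradiated mutants and 37.2 and 11.9 CPM in unirradiated wild type. Per kilobase of exon, Ighv3-6 had the highest mean level in unirradiated mutants at 560 CPM per kb, followed by Ighv1-18 at 284 and Ighv1-26 at 279. In unirradiated wild type the order was Ighv1-9 at 69.9 CPM per kb, Ighv1-26 at 54.9 and Ighv3-6 at 43.7.

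A lower fitted level in unirradiated mutants was found for 3 tested segments, and none of these 3 had separated groups. Ighv1-20 was at 4.49 and 3.63 CPM in unirradiated mutants, against 1.45 and 17.3 CPM in unirradiated wild type. Its log2 fold change of -1.20 ± 1.09 (SE; edgeR adjusted p = 1) turned to 1.48 without the second wild type library, so a single library set its sign. Ighv1-5 was at 3.84 and 5.35 CPM in unirradiated mutants, against 11.5 and 2.47 CPM in unirradiated wild type, and its log2 fold change of -0.61 turned to 0.89 without the first wild type library. The third was Ighv8-5, with a log2 fold change of -0.45.

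Segments known by older names from antibody research were low. Ighv1-72, the VH186.2 segment of the C57BL/6 response to the hapten NP, was at 10.03 and 6.14 CPM in unirradiated mutants and 7.34 and 2.34 CPM in unirradiated wild type, which overlap. Its near copy Ighv1-62-3 is 99.1% identical, so these counts are uncertain. Ighv7-1, the S107 or T15 segment of antibodies to phosphorylcholine, was at 4.84 and 9.87 CPM in unirradiated mutants, above the 3.47 and 1.39 CPM in unirradiated wild type. Ighv11-2 and Ighv12-3, used by B-1 cells that bind phosphatidylcholine, also lay higher in both mutant libraries. Ighv11-2 was at 2.88 and 2.14 CPM in unirradiated mutants and 1.06 and 0.443 CPM in unirradiated wild type. Ighv12-3 was at 1.35 and 3.30 CPM in unirradiated mutants and 0.528 and 0.443 CPM in unirradiated wild type. None of these had an adjusted p under 1 by edgeR on all libraries. Ighv5-2, known as VH81X, lies nearest to the D segments and overlapped, with 2.09 and 1.02 CPM in unirradiated mutants and 1.23 and 0.569 CPM in unirradiated wild type.

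The difference ran along the whole cluster. The members were split by position into 4 parts of 28 or 29 segments, counted from the D segments, which lie at 113430528 to 113528054. The log2 ratio of mean summed levels, unirradiated mutant over unirradiated wild type, was 2.13 in the part nearest to the D segments, 2.12 and 2.05 in the next parts, and 1.76 in the farthest. In each of the 4 parts both mutant libraries lay above both wild type libraries. By family, the number before the hyphen in the symbol, 14 of the 16 families were separated in the same direction. The exceptions were family 15, which overlapped, and family 16, whose only segment had no counts. The first family held 53 segments and 51.8% to 62.4% of the Ighv counts of a library. Its share was 56.5% and 53.2% in unirradiated mutants, below the 60.3% and 62.4% in unirradiated wild type, while the third family took 14.3% and 11.8% in unirradiated mutants and 4.29% and 5.39% in unirradiated wild type. The log2 ratio of the third family was 3.50, that of the first 1.86.

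**Figure D2:**
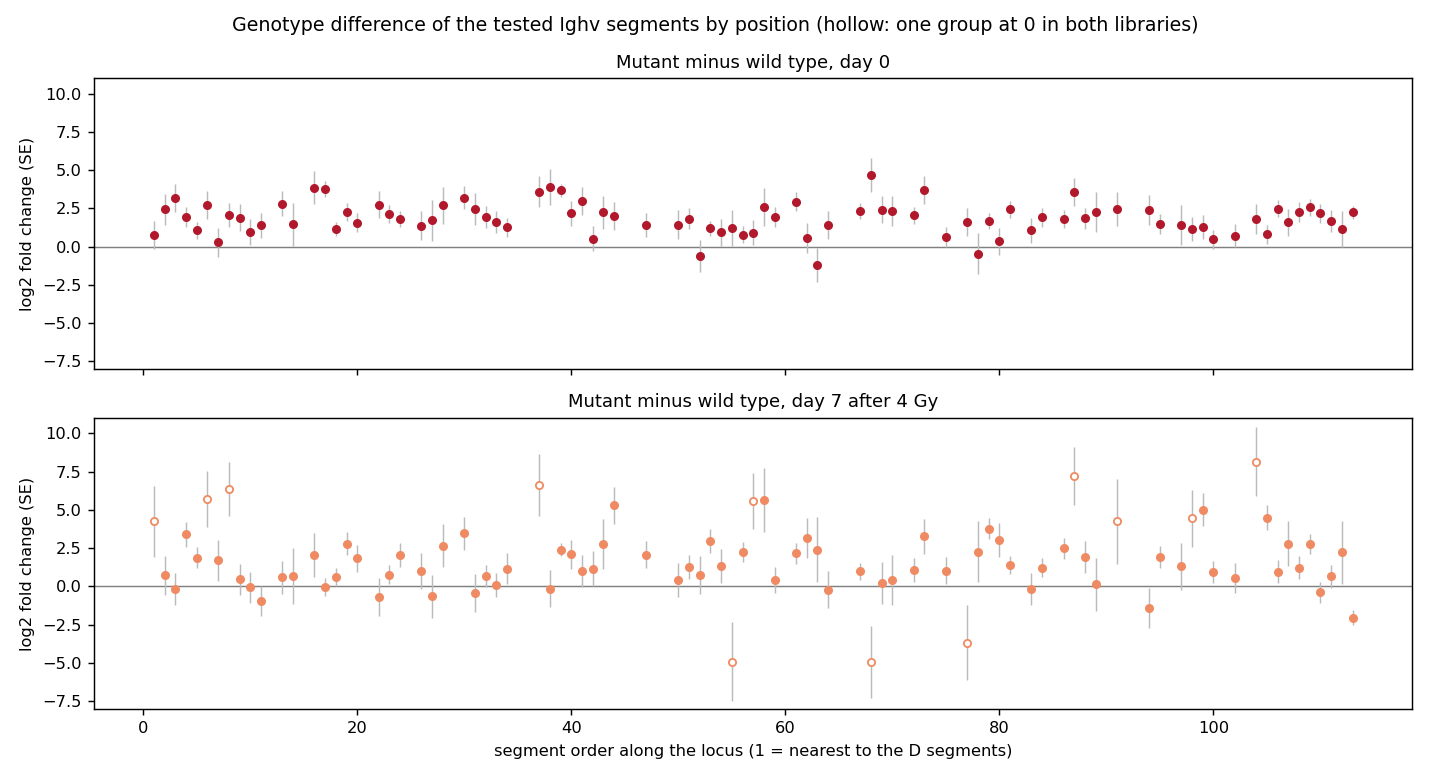
Log2 fold change of mutants over wild type (edgeR, with SE as vertical lines) for each of the 88 tested segments, ordered along the locus from the D segments outward, without irradiation (upper panel) and at day 7 after 4 Gy (lower panel). Without irradiation 85 points lie above 0 along the whole locus, and at day 7 72 points do, with wider errors; hollow points have 1 group at 0 in both libraries, where the fitted value is no bound.

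Use of the segments was less even in unirradiated mutants. The effective number of segments (inverse Simpson index, the number of equally used segments that would give the same chance that a pair of reads comes from the same segment) was 28.3 and 33.1 in unirradiated mutants, against 42.1 and 45.5 in unirradiated wild type. The groups did not overlap. The 10 leading segments held 47.5% and 42.1% of Ighv counts in unirradiated mutants, against 37.2% and 35.7% in unirradiated wild type. Ighv3-6 led both mutant libraries, with 11.2% (95% Wilson interval 10.9% to 11.5%) and 10.6% (10.2% to 10.9%) of Ighv counts. The wild type libraries had different leaders, Ighv1-9 with 6.65% (6.23% to 7.10%) and Ighv1-20 with 5.24% (4.67% to 5.88%). Ighv3-6 held 3.35% and 3.59% there. Without Ighv3-6 the mean effective number was 38.2 in unirradiated mutants and 43.1 in unirradiated wild type, against 30.7 and 43.8 with it. Intervals cover counting error only, since copies made by PCR are not independent molecules.

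The number of segments seen followed the depth of Ighv reads. At least 10 counts were found for 95 and 90 segments in unirradiated mutants and 87 and 73 in unirradiated wild type. When every library was reduced to the 374 Ighv counts of the smallest, the expected number of segments was 69.2 and 70.1 in unirradiated mutants, against 72.1 and 72.9 in unirradiated wild type. On equal depth the mutant libraries thus held slightly fewer segments than the wild type libraries, the reverse of the order at full depth. The share of segment use in common between replicates was 81.2% in unirradiated mutants and 78.4% in unirradiated wild type, where an unirradiated mutant and an unirradiated wild type library shared 68.3% to 73.3%.

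**Figure D3:**
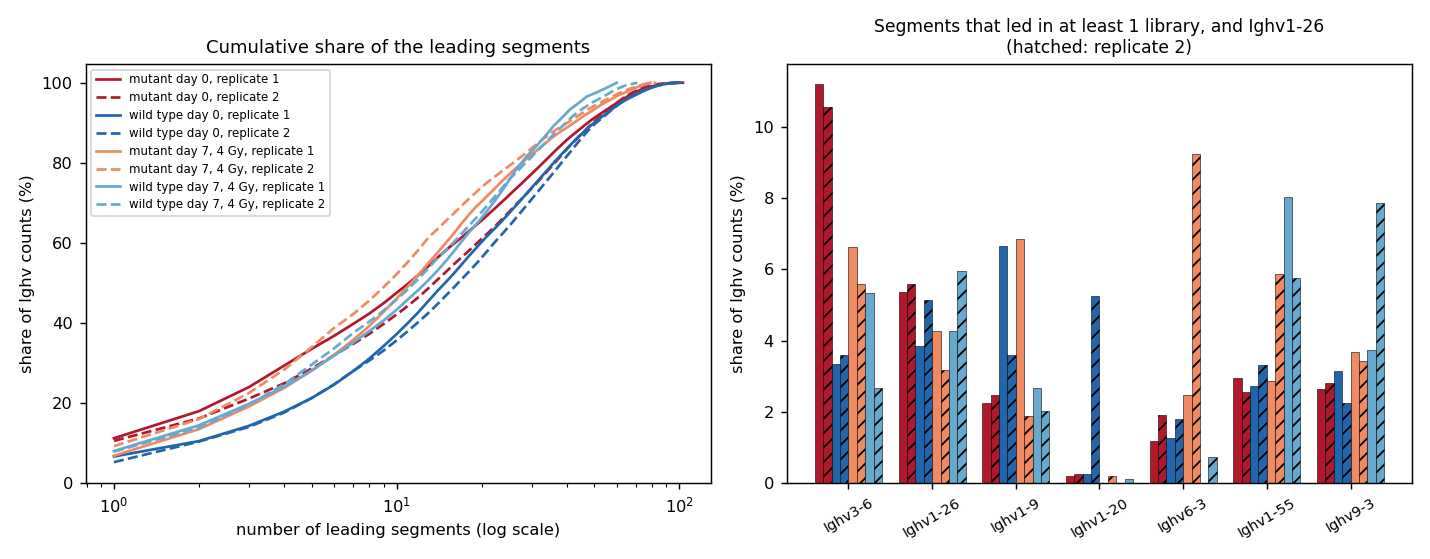
Left, the cumulative share of Ighv counts (%) held by the leading segments, against their number on a log axis, for each library; right, the share (%) of each segment that led a library, and of Ighv1-26, in the 8 libraries, with hatched bars for replicate 2. Ighv3-6 holds 11.2% and 10.6% in the unirradiated mutant libraries and at most 6.64% in the other 6, and Ighv1-20 and Ighv6-3 stand out in single libraries.

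At day 7 after 4 Gy the genotypes again differed in the sum, with fewer segments separated. Means were higher in mutants for 75 members and lower for 18, and 20 were at 0 in all 4 libraries. Of the 88 tested segments, 33 had both mutant libraries above both wild type libraries, against 10.4% of all tested genes, and Ighv1-85 alone had both below, against 7.46%. The log2 fold change was above 0 for 72 of the 88, against 51.6% of all genes. Its median was 1.29 for the segments and 0.02 for all tested genes. Single libraries moved this median, to 0.43 (57 of 95 tested above 0) without the second irradiated mutant library and to 2.48 (83 of 95) without the second irradiated wild type library. With the 11 segments that were at 0 in 1 group set to the bound that 3 counts over the group allow, and 1 at or under that floor in both groups left out, it was 1.23. No segment passed by edgeR (0.0% of all genes), the smallest adjusted p was 0.812, and the unadjusted p was under 0.05 for 28 segments that were higher and 1 that was lower, against 3.36% and 0.652% of all genes in these directions. DESeq2 called 7, where 0.367% of all genes were called higher. The filter on low counts used all 8 libraries. A fit of the day 7 libraries alone tested 40 segments, of which 31 were above 0, with a median of 1.08. It called 0 segments, where 0.0% of all genes were called. Without the first irradiated mutant library edgeR called 12, where 1.08% of all genes were called higher. Without the second it called Ighv1-12, Ighv1-75 and Ighv1-80, where 0.4% were.

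Ighv6-3, of the sixth family, was at 2.92 and 21.8 CPM in irradiated mutants, against 0 and 0.618 CPM in irradiated wild type. It was the leading segment of the second irradiated mutant library, with 9.23% of its Ighv counts (8.39% to 10.1%). Its log2 fold change was 5.29 ± 1.21 (SE; edgeR adjusted p = 0.953), and 3.14 to 10.7 with 1 library left out. The second library held most of its level in irradiated mutants. Ighv3-6 was at 7.83 and 13.2 CPM in irradiated mutants, against 1.80 and 2.21 CPM in irradiated wild type. Its log2 fold change was 2.39 ± 0.428 (SE), with an adjusted p of 0.812 by edgeR. Ighv1-64 was at 4.67 and 16.0 CPM in irradiated mutants, against 1.35 and 4.24 CPM in irradiated wild type, separated by a small gap.

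The leading segment at day 7 differed from library to library. The leaders were Ighv1-9 with 6.84% (5.44% to 8.57%) and Ighv6-3 in irradiated mutants, and Ighv1-55 with 8.02% (5.68% to 11.2%) and Ighv9-3 with 7.87% (6.32% to 9.77%) in irradiated wild type. The effective number was 33.1 and 26.8 in irradiated mutants, against 35.2 and 32.8 in irradiated wild type, and these overlap. At equal depth the expected number of segments was 66.5 and 62.2 in irradiated mutants and 60 and 61.8 in irradiated wild type. Replicates shared 61.4% of segment use in irradiated mutants and 60.3% in irradiated wild type, where an irradiated mutant and an irradiated wild type library shared 51.8% to 60.6%. Shares at this time rest on 374 to 4259 counts, which limits their precision. Few counts also lower the share of use in common by sampling alone. It was not computed at equal depth, so it cannot be set against the values without irradiation.

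In mutants, 13 segments were lower at day 7 after 4 Gy than at day 0 by edgeR at an adjusted p under 0.05, against 0.346% of all genes called lower, and none was called higher. All 88 tested segments had a log2 fold change below 0, against 43.7% of all genes. The filter on low counts used all 8 libraries, so a segment high only without irradiation could pass it. For such segments a fall was favoured in advance. With the day 7 libraries filtered alone, 40 segments passed. Of all 113 members, 103 had a lower mean at day 7 and 0 a higher one. The median of the tested segments was -3.42 (25% to 75% range -4.35 to -2.59), and all genes had 0.15. Of the tested segments, 86 had both irradiated libraries below both unirradiated ones, against 25.7% of all genes. The 13 called were Ighv5-16, Ighv1-81, Ighv1-76, Ighv1-85, Ighv1-15, Ighv1-39, Ighv3-6, Ighv1-18, Ighv3-1, Ighv1-26, Ighv5-17, Ighv1-53 and Ighv10-3. Their log2 fold changes ran from -5.44 to -3.60 and their adjusted p from 0.0161 to 0.0466. The calls come from families 1, 3, 5 and 10. The number called was 0 when any 1 of the 4 unirradiated libraries was left out. The shares of all genes called lower were then 0.0601% and 0.0164% without the first and the second mutant library, and 0.0109% and 0.0212% without the first and the second wild type library. The number was also 0 with the mutant libraries alone, where 0.0% of all genes were called. It was 44 without the first irradiated mutant library, where 2.07% of all genes were called lower, and 70 without the second, where 13.6% were. DESeq2 called 62, against 3.97% of all genes. The unadjusted p was under 0.05 for 74 segments, where 8.7% of all genes were so in that direction.

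The called segments held few reads after irradiation. Ighv5-16 fell to 0.818 and 1.11 CPM in irradiated mutants, against 54.1 and 31.9 CPM in unirradiated mutants (log2 fold change -5.44 ± 0.601 SE; edgeR adjusted p = 0.0190). Ighv3-6 fell to 7.83 and 13.2 CPM in irradiated mutants, against 236 and 156 CPM in unirradiated mutants (log2 fold change -4.21 ± 0.431 SE; edgeR adjusted p = 0.0161). Ighv1-26 fell to 5.02 and 7.47 CPM in irradiated mutants, against 113 and 82.6 CPM in unirradiated mutants. The gap between the groups was wide in each of these 3 segments, wider than that between the irradiated replicates. Ighv1-81 fell to 0.934 and 2.10 CPM in irradiated mutants, against 87.9 and 49.1 CPM in unirradiated mutants. Ighv1-76 fell to 1.17 and 0.664 CPM in irradiated mutants, against 46.1 and 20.1 CPM in unirradiated mutants. The smallest fitted differences were those of Ighv1-75, at 2.80 and 11.3 CPM in irradiated mutants against 10.7 and 13.6 CPM in unirradiated mutants, which overlap.

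In wild type no segment passed by edgeR on all libraries, where 0.0462% of all genes were called lower, although the direction was the same. Of the 113 members, 99 had a lower mean at day 7 after 4 Gy and 3 a higher one (Ighv11-2, Ighv3-5 and Ighv1-23). Of the 88 tested, 79 had both irradiated libraries below both unirradiated ones, against 27.8% of all genes, and none had both above. The filter again let in segments that were high only without irradiation. Over all 113 members, 87 had both below and 0 had both above. The log2 fold change was below 0 for 86 of the 88, against 45.8% of all genes. Its median was -3.22, or -3.01 with the 9 segments at 0 in 1 group set to their bound, and all genes had 0.09. The smallest adjusted p was 0.0729, and 64 segments, all lower, had an unadjusted p under 0.05, against 8.57% of all genes in that direction. DESeq2 called 49 segments lower, where 3.23% of all genes were. With the wild type libraries alone edgeR called 40 of 73 lower, where 3.34% of all genes were. It called 55 without the first irradiated mutant library, where 6.72% of all genes were called lower, and 56 without the second, where 7.19% were.

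Ighv1-9 was at 0.901 and 1.68 CPM in irradiated wild type, against 37.2 and 11.9 CPM in unirradiated wild type (log2 fold change -4.24 ± 0.673 SE; edgeR adjusted p = 0.0907). Ighv1-19 was at 0.631 and 0 CPM in irradiated wild type, against 15.5 and 4.74 CPM in unirradiated wild type. Ighv1-52 was at 0.811 and 0.265 CPM in irradiated wild type, against 16.7 and 8.79 CPM in unirradiated wild type. In each of these 3 the groups were far apart. Ighv11-2 did not separate, with 0.0901 and 2.03 CPM in irradiated wild type and 1.06 and 0.443 CPM in unirradiated wild type. Ighv1-74 had no count in either irradiated wild type library, against 6.73 and 5.06 CPM in unirradiated wild type. In irradiated mutants it had 0.117 and 3.93 CPM.

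**Figure D4:**
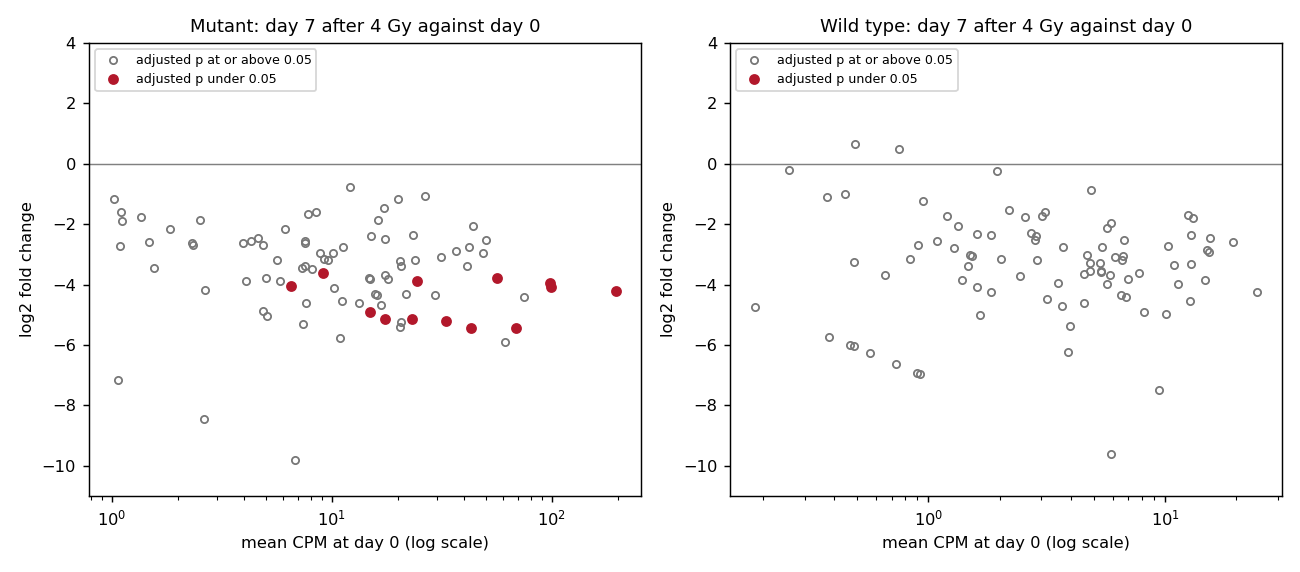
Log2 fold change at day 7 after 4 Gy over day 0 (edgeR) against the mean CPM at day 0 (log axis) for the 88 tested segments in mutants (left) and wild type (right), with filled red points for an adjusted p under 0.05. All 88 points lie below 0 in mutants, where 13 are filled, and 86 lie below 0 in wild type, where none is; for segments at 0 in both irradiated libraries the fitted value is no bound.

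The irradiation differences of the genotypes were compared by the interaction term of the same fit. No segment passed (0.0% of all genes), every adjusted p was 1, and the unadjusted p was under 0.05 for 3 segments above 0 and 7 below, against 1.09% and 0.508% of all genes. The median interaction was -0.16, with 40 segments above 0, against 54.2% of all genes, and 48 below. DESeq2 called Ighv1-85 alone (log2 interaction -4.29, adjusted p = 0.000473), where 0.00677% of all genes were called in that direction. Ighv1-85 is the segment farthest from the D segments, and it had opposite genotype differences at the 2 times. It was at 26.6 and 19.7 CPM in unirradiated mutants against 5.63 and 4.11 CPM in unirradiated wild type, and at 0.467 and 0.775 CPM in irradiated mutants against 2.16 and 3.18 CPM in irradiated wild type. The groups were separated at both times, in opposite directions.

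Heavy constant region genes and cell markers were read beside the segments. The 8 heavy constant genes, which code for the tail that sets the antibody class, summed to 11790 and 13080 CPM in unirradiated mutants, against 5726 and 6502 CPM in unirradiated wild type. At day 7 they summed to 3592 and 7801 CPM in irradiated mutants and 2144 and 6386 CPM in irradiated wild type, which overlap. These sums lay below those at day 0 in mutants, but overlapped those at day 0 in wild type. Ighv counts per 100 heavy constant counts were 17.9 and 11.3 in unirradiated mutants, against 9.77 and 5.09 in unirradiated wild type. They were 3.28 and 3.02 in irradiated mutants, against 1.57 and 1.30 in irradiated wild type. The ratio was thus higher in mutants at both times and lower after irradiation in both genotypes, with no overlap, so variable segment reads differed by more than constant region reads did. Kappa variable counts per 100 Igkc counts, the matching ratio of the light chain, were 49.8 and 33.6 in unirradiated mutants and 40.9 and 25.9 in unirradiated wild type, which overlap. They were 20.1 and 13.7 in irradiated mutants and 12.5 and 8.19 in irradiated wild type, which do not overlap. The kappa ratio was also lower after irradiation in both genotypes with no overlap, as the heavy chain ratio was.

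The classes of heavy chain differed in direction without irradiation. The 4 Ighg genes, the IgG classes, summed to 5766 and 5683 CPM in unirradiated mutants, against 1333 and 1230 CPM in unirradiated wild type. Igha, the IgA class, was at 2317 and 3218 CPM in unirradiated mutants, against 507 and 973 CPM in unirradiated wild type. Ighm, the IgM class, overlapped, with 3305 and 3795 CPM in unirradiated mutants and 3189 and 3511 CPM in unirradiated wild type. Ighd, the IgD class of resting B cells, was at 394 and 383 CPM in unirradiated mutants, against 693 and 786 CPM in unirradiated wild type. Ighm, Ighd and the Ighg sum were lower after irradiation in both genotypes, with no overlap. Igha was higher after irradiation in wild type, at 1290 and 3193 CPM, with no overlap. In irradiated mutants Igha was at 1211 and 3023 CPM, which overlapped the values without irradiation. No gene of this list was called in any comparison. Without irradiation 7 of the 8 had a log2 fold change above 0, against 46.7% of all genes, with a median of 1.45.

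Markers of B cells and plasma cells were summed beside the segments. The 5 plasma cell markers summed to 2494 and 2097 CPM in unirradiated mutants, against 782 and 982 CPM in unirradiated wild type, and none of the 5 was called. In a wider list of 15 plasma cell genes 13 had a log2 fold change above 0 without irradiation, against 46.7% of all genes, with a median of 0.78. The 4 B cell markers Ms4a1, Cd79a, Cd79b and Pax5 summed to 1351 and 1306 CPM in unirradiated mutants, against 2015 and 2710 CPM in unirradiated wild type. Plasma cell markers were thus higher and B cell markers lower in both mutant libraries, with no overlap. At day 7 the plasma cell markers summed to 1546 and 2372 CPM in irradiated mutants and 613 and 2098 CPM in irradiated wild type, which overlap. The B cell markers summed to 60.6 and 755 CPM in irradiated mutants and 453 and 912 CPM in irradiated wild type, also overlapping. In a wider list of 17 mature B cell genes, all 17 had a log2 fold change below 0 after irradiation in each genotype. Of all genes, 43.7% were below 0 in mutants and 45.8% in wild type. The medians of the 17 were -1.91 in mutants and -1.92 in wild type, and none was called. The 8 granulocyte markers summed to 4980 and 9396 CPM in unirradiated mutants, against 1413 and 1214 CPM in unirradiated wild type. At day 7 they summed to 207 and 171 CPM in irradiated mutants and 201 and 87.5 CPM in irradiated wild type. In mutants 6 of the 8 were called lower after irradiation, against 0.346% of all genes. The 7 macrophage markers summed to 841 and 730 CPM in unirradiated mutants and 761 and 722 CPM in unirradiated wild type, which overlap. At day 7 they summed to 1802 and 1713 CPM in irradiated mutants, against 609 and 835 CPM in irradiated wild type. In mutants C1qc, 1 of the 7 macrophage markers, was called higher after irradiation, against 0.254% of all genes. Hepatocyte markers summed to 48.4 to 430 CPM in irradiated libraries and at most 0.977 CPM in unirradiated ones. Alb, 1 of these 5, was also called higher after irradiation in mutants. The part of these cell types in the Ighv differences was not tested.

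Genes of the early B cell and recombination list gave no call. Of its 8 genes 5 were tested. Over wild type, 0 had a log2 fold change above 0 in unirradiated mutants (median -0.81), against 46.7% of all genes. In irradiated mutants over wild type, 1, Dntt, was above 0 (median -0.30), against 51.6%. After irradiation Dntt, Vpreb1 and Il7r, 3 of the 5, were above 0 in mutants (median 0.04), against 56.3% of all genes. In wild type 1, Vpreb1, was above 0 (median -1.58), against 54.2%. Vpreb1 was low, at most 2.12 CPM in any library. Rag1, a subunit of the enzyme that joins the segments, was at 0.872 and 0.698 CPM in unirradiated mutants and 1.58 and 0.316 CPM in unirradiated wild type, and at most 0.177 CPM in any irradiated library. Of the 9 octamer and enhancer factors of the heavy chain locus, 4 had a log2 fold change above 0 in unirradiated mutants. The share of all genes above 0 was 46.7%, and the median of the 9 was -0.08. Pou2af1, the B cell coactivator of octamer promoters, was at 230 and 234 CPM in unirradiated mutants and 252 and 238 CPM in unirradiated wild type, lower in mutants by a small margin. The 10 cell division genes had 9 log2 fold changes above 0 without irradiation, against 46.7% of all genes, with a median of 0.35.

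Segments with and without near copies were compared. Without irradiation the median log2 fold change was 1.21 for the 11 tested segments that share no 50-base run, and 1.92 for the other 77. At day 7 the medians were 1.85 for the 11 and 1.26 for the 77. After irradiation the 11 had medians of -2.73 in mutants and -3.24 in wild type, against -3.49 in mutants and -3.19 in wild type for the 77. The direction was the same in both classes in these 4 comparisons. The median interaction had opposite signs, 0.55 for the 11 and -0.45 for the 77. Counts assigned to the 70 Ighv pseudogenes were 0.106 to 1.87 per 100 Ighv counts in a library.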

How the data were processed

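The authors deposited 1 table of raw read counts per gene, whole numbers with a column for each of the 8 libraries and 0 columns of no sample. The tools listed in the submitters' processing notes are Trim Galore, Subread and featureCounts, and the builds listed are mm10 and hg38. Versions, annotation, strandedness and how reads that fit several genes were treated: not given in the sources used here. Per the labels' protocols, frozen spleens were extracted with Trizol and libraries came from an mRNA kit. A symbol and gene type were found for 52403 of 52636 identifiers in GENCODE M21 (GRCm38, to which mm10 corresponds).

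Genes were kept by filterByExpr (minimum count 10, minimum total 15), and 17327 remained. TMM gave the scaled library sizes, and CPM is relative to these. A floor of 3 counts for an observed 0, which covers counting error only, corresponds to 0.131 to 0.35 CPM. The test was the quasi-likelihood F test of edgeR 4.0.16 under R 4.3.3, with every library in a single model that had 1 term per group (4 residual degrees of freedom), Benjamini-Hochberg adjustment over all genes and a threshold of 0.05. The standard error of a log2 fold change was its size divided by the square root of F. Since nothing says that the libraries of a group came from separate mice, the spread behind the p-values may be technical. The chi-square of replicate counts was 20.5 to 352 per degree of freedom, so no pair was within sampling noise. Evenness was the inverse Simpson index, and the number of segments at equal depth the analytic expectation for a draw without replacement. Shared 50-base runs and pairwise identity were computed from the GENCODE M21 transcripts (Biopython 1.88). On simulated data, the procedure called 0 of 67 genes changed 2-fold, 18 of 67 changed 4-fold and 58 of 66 changed 8-fold. It called 0 unchanged genes. Every simulated gene had the same spread between replicates (dispersion 0.152), so these rates need not hold in the real libraries. A gene left uncalled there may differ by 2-fold, 4-fold or more. Alternatives were DESeq2 1.42.0, other scalings, no filter, a robust fit, a replicate block, the 2 groups compared alone and leaving out each library.

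The members, gene lists, alternatives and the rule for named segments were chosen with earlier results of these data known. The rule took the 8 members with the largest mean CPM, the leading segment of each library, in each comparison the 6 furthest called segments in a direction or, with under 3 called, the 3 furthest with a mean of at least 5 CPM, the detected segments nearest to and farthest from the D segments, and 5 segments known by older names. Other segments named in the text are counts of members listed in full and near copies. 1 gene of the B cell lists is not reported here, and its lists were summed and counted without it.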

Additional observations from a re-analysis of the deposited data

Results flagged for a closer look

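Ighv1-85, the member farthest from the D segments, differed between genotypes in opposite directions at the 2 times. It had 610 and 424 counts in unirradiated mutants against 128 and 65 in unirradiated wild type, and 4 and 14 counts in irradiated mutants against 24 and 36 in irradiated wild type. On the log2 scale the mutants were higher by 2.25 ± 0.418 without irradiation, while the difference was -2.04 ± 0.478 at day 7 (SE). The interaction was -4.28 ± 0.634 (SE), with an adjusted p of 1 by edgeR's quasi-likelihood test over all genes. Its share of Ighv counts was 1.26% and 1.34% in unirradiated mutants and 1.01% and 1.24% in unirradiated wild type, and 0.396% and 0.329% in irradiated mutants and 6.42% and 3.83% in irradiated wild type. The segment shares 35.4% of its 50-base runs with other members, and its nearest copy, Ighv1-84, is 94.0% identical. The part of shared reads in this pattern was not tested.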

How the results depend on the processing

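The direction of every summed level held under all scalings, with pseudogenes and without Ighv3-6. Leaving out 1 library gave log2 ratios of 1.68 to 2.44 for mutants over wild type without irradiation, 1.01 to 2.39 at day 7, -3.93 to -2.93 for irradiation in mutants and -3.72 to -2.42 in wild type. Counts of called segments were far less stable, although the day 7 genotype count stayed 0 with the 2 groups alone. Without irradiation, 0 became 15 by DESeq2, 28 without the low-count filter and 50 with the 2 groups alone, and 0 to 2 with a library left out. At day 7, 0 became 7 by DESeq2, 19 without the filter, and 0 to 12 with a library left out. For irradiation in wild type, 0 became 49 by DESeq2, 68 without the filter, 40 with the 2 groups alone, and 0 to 56 with a library left out. For irradiation in mutants, 13 became 62 by DESeq2, 76 without the filter, 0 with the 2 groups alone, and 0 to 70 with a library left out. For the interaction, 0 became 1 by DESeq2 and 9 without the filter, and stayed 0 with any library left out. Without the filter, the shares of all genes called were 0.434% higher without irradiation, 0.522% higher at day 7, 2.69% lower for irradiation in wild type, 3.13% lower in mutants, and 0.108% above and 0.0677% below 0 for the interaction. The cause was not tested. Where a library was left out, the remaining library of its group was assumed to vary like the other groups.

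The labels do not say that equal replicate numbers belong together, and with 2 numbers the pairing cannot be settled. The differences between replicates correlated at 0.0472 to 0.578 between groups, across genes. With the replicate block, 22 segments were called for irradiation in mutants and 1 in wild type, where 0.675% and 0.0808% of all genes were called lower, and 0 in the other comparisons.

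Mean numbers of detected segments were 102, 99.5, 81.0 and 65.5 at 1 count or more and 98.5, 94.0, 70 and 50 at 3 or more, in unirradiated mutants, unirradiated wild type, irradiated mutants and irradiated wild type, against 92.5, 80.0, 45.5 and 21 at 10 or more. At equal depth unirradiated mutants had 69.6 and irradiated wild type had 60.9. With either library of a group alone they were 90 to 95, 73 to 87, 29 to 62 and 11 to 31 in the same order, which was added after the data were seen. The Shannon effective number was 49.1, 57.5, 42.4 and 42.6 in that order. With only segments of at least 10 counts, the inverse Simpson number was 24.0 in irradiated mutants and 16.5 in irradiated wild type, and without Ighv3-6 it was 38.2 in unirradiated mutants. With either library alone it was 28.3 to 33.1, 42.1 to 45.5, 26.8 to 33.1 and 32.8 to 35.2. Reducing the depth does not change the form of the index used, so no such value was computed, and minimums of 1 and 3 counts were not run for it.

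Among named segments, the fitted log2 fold change changed sign in 6 settings, each without 1 library. Without irradiation these were Ighv1-20 (1.48 without wild type replicate 2, range -2.09 to 1.48) and Ighv1-5 (0.89 without wild type replicate 1, range -1.32 to 0.89). At day 7 they were Ighv1-55 (-0.20 without mutant replicate 2, range -0.20 to 1.93) and Ighv1-81 (0.05 without mutant replicate 1 and 0.96 without wild type replicate 2, range -1.21 to 0.96). The interaction of Ighv5-4 was 0.22 without irradiated wild type replicate 2, range -5.52 to 0.22.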

Other observations

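In some segments the irradiation difference had the direction of the sum, but its size differed between genotypes. Ighv1-69 was at 2.22 and 15.2 CPM in irradiated mutants, against 0.180 and 0.353 CPM in irradiated wild type, a log2 fold change of 5.01 ± 1.08 (SE; edgeR adjusted p = 0.895). Ighv1-75 was at 2.80 and 11.3 CPM in irradiated mutants, against 0.180 and 0.442 CPM in irradiated wild type, a log2 fold change of 4.49 ± 0.816 (SE; edgeR adjusted p = 0.812). Between day 7 and day 0 the mutants had log2 fold changes of -1.17 for Ighv1-69, with no overlap, and -0.76 for Ighv1-75, which overlapped, while in wild type the values were -4.90 for Ighv1-69 and -4.43 for Ighv1-75. Ighv5-4, of the fifth family, had the larger fall in mutants, with -5.90 in mutants and -2.54 in wild type. Its interaction ran from -5.52 to 0.22 with 1 library left out, so a single library can remove this contrast. The interactions of Ighv1-69 and Ighv1-75 were smaller without the second irradiated mutant library. They were 3.73 for Ighv1-69 and 3.67 for Ighv1-75 with all libraries, and 1.66 for Ighv1-69 and 2.24 for Ighv1-75 without that library. None of these interactions had an adjusted p below 1 by edgeR.

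The fifth family took 9.81% and 11.6% of Ighv counts in unirradiated mutants, 10.2% and 7.68% in unirradiated wild type, 5.15% and 4.53% in irradiated mutants and 10.7% and 10.9% in irradiated wild type. Irradiated mutants were the lowest of the 4 groups, with no overlap.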
